A study of Homo sapiens with 8 samples.

Results

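The genes described here encode enzymes and substrate receptors that attach ubiquitin to proteins or remove it, and they were chosen by symbol from the deposited table of differential m6A peaks. A gene was a member if it was MIB1, MIB2, HUWE1, ITCH or CBL, or if its symbol began with RNF, TRIM and a digit, FBXO, FBXL, FBXW, USP, UBE, UBR, KLHL, KBTBD, CUL and a digit, HERC, HECT, NEDD4, SMURF, MARCH, OTUD, DCAF or BTBD, and if its Ensembl ID lay below a limit on the ID number. The rule found 36 genes with 42 peaks among 1103 gene IDs with 1262 peaks. MIB2 was the 1 singly named gene with a listed peak, and MIB1, HUWE1, ITCH and CBL had none.

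The peaks came from MeRIP-seq of ARPE-19, a human retinal pigment epithelium (RPE) cell line. The shMET+LPS cells carried a lentivirus that silences METTL3, the catalytic subunit of the main m6A writer, and the shNC+LPS cells carried its negative control. Both groups received 1 μg/ml LPS, a bacterial inflammatory stimulus, for 24 h, and each had 3 m6A IP libraries and 1 input library. The infected cells were selected as stable strains according to the study's text, and nothing in the labels says that the IP libraries came from separate cultures.

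Ubiquitin passes from an E1 activating enzyme to an E2 conjugating enzyme and then, with the help of an E3 ligase, to a substrate. RING ligases bring the loaded E2 to the substrate, HECT ligases carry ubiquitin themselves, and cullin ligases are assembled from a scaffold and exchangeable receptors with F-box or BTB domains. Deubiquitinases remove ubiquitin. N6-methyladenosine (m6A) is a methyl mark on mRNA that reader proteins bind and that affects splicing, translation and decay.

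The deposited table gives values over combined libraries. Each peak has 1 fold enrichment of IP over input, for which no group is named and which is called the strength of the peak here, and a q-value and a log2 fold change (log2FC) for the difference in m6A, all computed by the authors. No value of a single library is given, so library depth and replicate error are unknown and no difference was tested here. Only differential peaks are listed, with a largest q-value of 0.0501, and being listed is therefore not a finding about a gene. The table does not state the direction of the fold change. Negative values were taken to mean lower m6A in shMET+LPS, since 20 of 20 peaks in 15 genes that the study picked for lower m6A were negative, and the opposite reading would turn every direction below. Positions are on hg38, the build in the submitters' notes, and distances refer to RefSeq gene spans on GRCh38.p14.

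Lower and higher m6A were equally frequent among the member peaks. Of the 42 peaks, 21 (50%, 95% Wilson interval 35.5% to 64.5%, counting error only) were lower in shMET+LPS, against 72.1% of all listed peaks. The interval treats the peaks as independent, although 4 genes hold several of them, and covers no error between libraries. It is therefore no test against the share of all listed peaks. A log2FC at or under -1 was found at 17 member peaks (40.5%, against 60.5% of all listed peaks), and one at or over 1 at 12 (28.6%, against 16.8%). By gene, 16 members had lower peaks only, 16 had higher peaks only, and 4 had both (11.1%), beside 69.7%, 28.1% and 2.18% of all 1103 IDs. The median log2FC was -2.10 over the lower member peaks and 1.21 over the higher ones, beside -1.69 and 1.19 over all lower and all higher peaks. The members with a listed peak were 7.56% of the 476 RefSeq protein-coding genes whose symbols fit the rule, beside 4.84% of all 20056 protein-coding genes. Whether these shares differ was not tested, since the members were chosen with results of these data known.

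**Figure D1:**
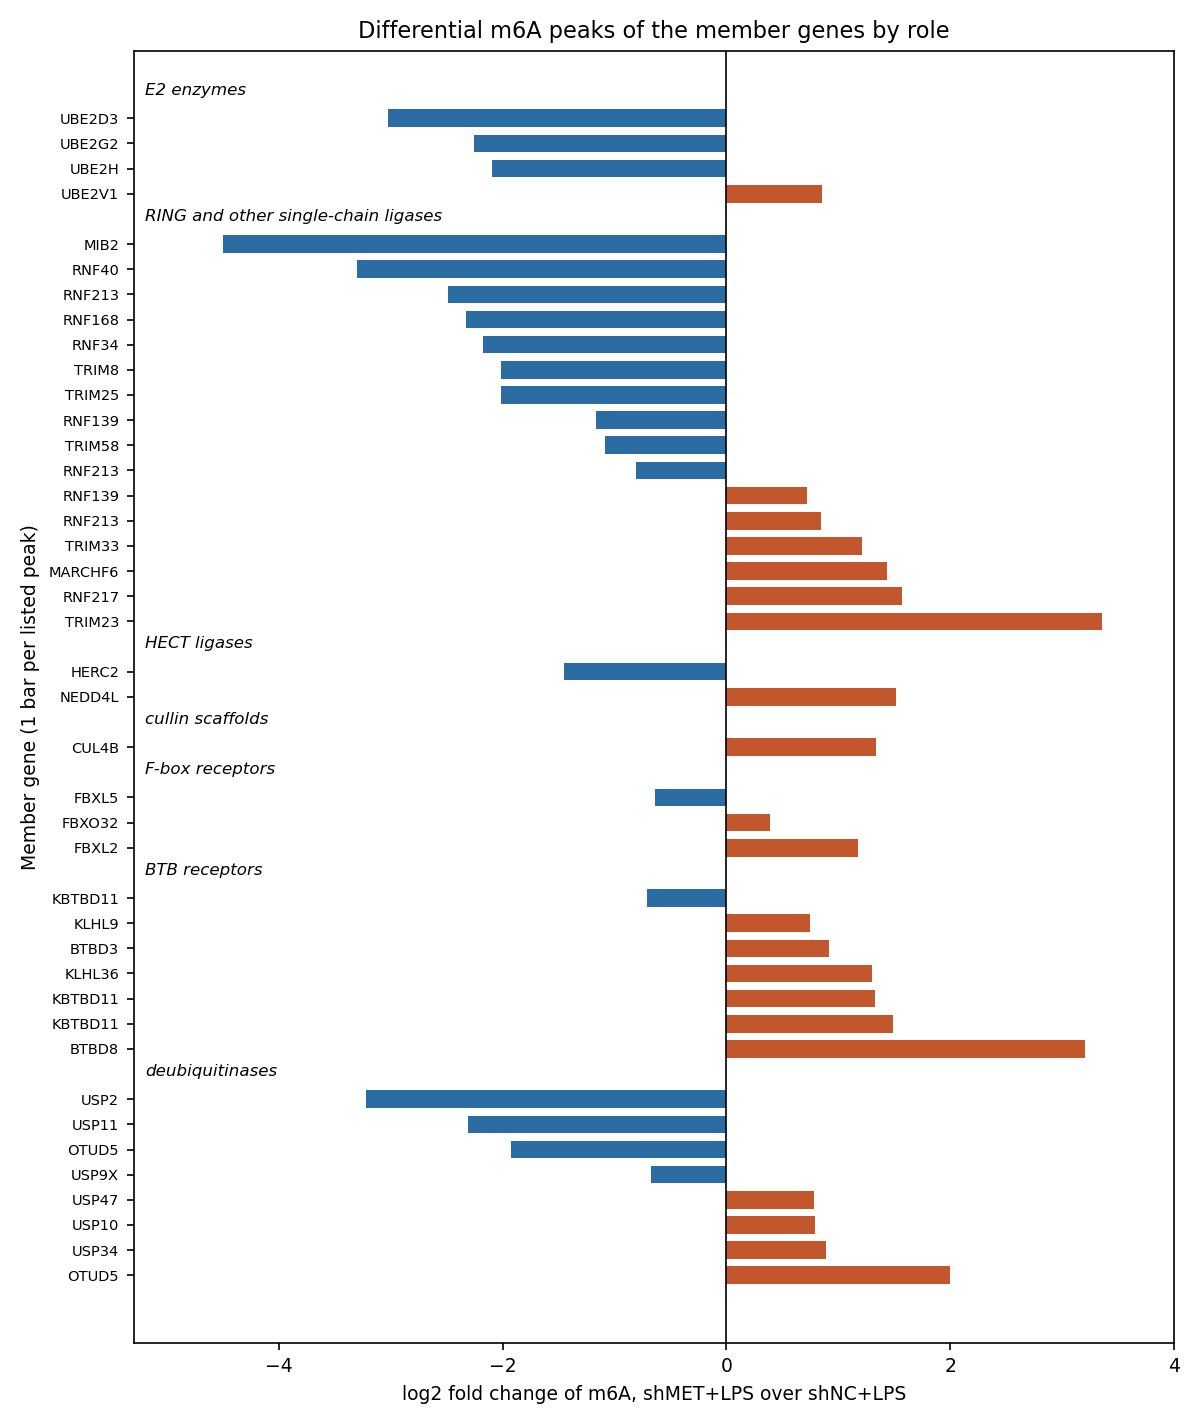
Bars give the log2FC in m6A, shMET+LPS over shNC+LPS, of the member peaks described here, grouped by role, with lower peaks in blue and higher peaks in orange. The changes run from -4.50 in MIB2 to 3.36 in TRIM23.

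The E2 enzymes had 4 peaks, 3 of them lower (75%, close to the 72.1% of all listed peaks). UBE2D3, a conjugating enzyme that serves many RING ligases, fell most, with a log2FC of -3.03 (q = 0.00126), which leaves 12.2% of the control. Its peak on chromosome 4 from 102827502 to 102827742 is 241 nt wide and has a fold enrichment of 3.96. UBE2G2, which acts in degradation of proteins from the endoplasmic reticulum, had -2.26, and UBE2H had -2.10. The only higher peak was that of UBE2V1, an E2 variant without catalytic activity that partners an active E2. It lies on chromosome 20 from 50082412 to 50084135, with a log2FC of 0.86 and a fold enrichment of 7.49, and it had the smallest q-value of the group (q = 0.000427). The same stretch is listed again with 0.83 under another ID on the same strand, which also took the name UBE2V1. It lies in the read-through gene PEDS1-UBE2V1 too. The counted ID was named by position and may be that of the read-through gene, so the transcripts cannot be told apart.

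The peak of UBE2D3 overlaps a RefSeq promoter window, the 250 bases before and 50 bases after an annotated start site, which allows its sequence to be shown. The window holds 1 GGACT, a form of the m6A consensus, on the RNA strand inside the peak. It lies at -64 from the start site of the window, so RNA begun at that site would not hold it. A GGACA, another form, lies inside the peak at 14 from the same site. The peak lies 41153 bases from the 5′ end of the gene span, so this start site is not the first of the gene. Whether RNA begun further upstream holds the GGACT was not analysed. The GGACT is shown with its neighbours on the minus strand of GRCh38.p14, chr4:102827599-102827627, with the motif in capitals.
UBE2D3: ggcggcgttggcGGACTgatccgcggcgg
GGACT was present on the sense strand in 25.3% of the 35116 promoter windows and on either strand in 44.2%, so its presence is a description and no evidence of a methylated site.

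RING and other single-chain ligases made up the largest group, with 16 peaks in 13 genes, of which 10 were lower (62.5%, beside 72.1% of all listed peaks) and 6 higher. MIB2, a ligase that acts on Notch ligands, had the largest change of all member peaks. Its peak on chromosome 1 from 1624900 to 1625302, of 3 blocks and 240 nt, had a log2FC of -4.50 (q = 0.000933), which leaves 4.42% of the control, at a fold enrichment of 5.60. RNF40, which ubiquitinates histone H2B together with a partner ligase, had the smallest q-value of all member peaks (q = 1.26e-11). Its peak on chromosome 16 from 30768480 to 30769284 fell by 3.30 on the log2 scale to 10.2% of the control, at a fold enrichment of 4.79. RNF168, which ubiquitinates histones at DNA breaks, had -2.33 (q = 0.0245) in a stronger peak, with a fold enrichment of 22.5, on chromosome 3 from 196470097 to 196470754. Large falls thus occurred in peaks of quite different strength.

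TRIM8 and TRIM25, the latter a ligase of the antiviral RIG-I pathway, both had a log2FC of -2.02 in peaks 121 nt wide. The peak of TRIM8, on chromosome 10 from 102655055 to 102655175, was the least enriched of all member peaks, with a fold enrichment of 2.07 (q = 1e-07). That of TRIM25, on chromosome 17 from 56891589 to 56891709, had a fold enrichment of 3.30 (q = 0.0105). An opposite-strand ID shares 108 of its 121 bases, so this fall cannot be assigned to TRIM25 alone. RNF34 had -2.18 and TRIM58 -1.09. At TRIM8 and TRIM25 weak peaks thus carried falls of similar size to that of RNF34, whose fold enrichment was 12.8.

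Higher m6A in this group was found in TRIM23, RNF217, MARCHF6 and TRIM33 as well as in 1 peak each of RNF139 and RNF213. TRIM23, a ligase with a GTPase domain, had the largest rise of all member peaks, 3.36 on the log2 scale or 10.3 times the control (q = 0.0457). Its peak lies on chromosome 5 from 65591770 to 65594551 with a fold enrichment of 6.92. RNF217 had 1.57 (q = 3.63e-05) in a peak on chromosome 6 from 125082555 to 125083454 with a fold enrichment of 44.4. MARCHF6, a ligase of the endoplasmic reticulum membrane, had 1.44 (q = 6.76e-08) on chromosome 5 from 10433821 to 10434331 with a fold enrichment of 14.7. TRIM33, a regulator of SMAD signalling, had 1.21. The largest rise thus had one of the weakest q-values, whereas the smaller rise of MARCHF6 had a far smaller one.

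The HECT ligases went in opposite directions. NEDD4L, which limits the epithelial sodium channel at the cell surface, had a log2FC of 1.52 (q = 0.000437) in a peak on chromosome 18 from 58396172 to 58396532 with a fold enrichment of 14.6. HERC2, a very large ligase with a part in the DNA damage response, had -1.45.

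The genes of cullin ligases comprised 1 scaffold, and genes with F-box or BTB domains that were taken as receptors by symbol. CUL4B, which assembles ligases with DDB1, had a log2FC of 1.34 (q = 6.46e-05) in a peak on chromosome X from 120526434 to 120526793 with a fold enrichment of 7.56. The F-box receptors had 2 lower and 2 higher peaks, beside 72.1% lower among all listed peaks, and the difference was not tested. FBXO32, known from muscle atrophy, had the smallest change of all member peaks and yet the smallest q-value of the F-box genes. Its log2FC was 0.39 (q = 2.82e-07) in a peak on chromosome 8 from 123502918 to 123503427 with a fold enrichment of 11.7. FBXL5, the iron-sensing receptor, had -0.64, and FBXL2 had 1.18.

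Among the BTB genes, 1 of 7 peaks was lower (14.3%, against 72.1% of all listed peaks), and it belonged to KBTBD11. That gene holds 3 of the 7 peaks, so the peaks are not independent, and the difference was not tested. BTBD8 had the largest rise of the group, 3.21 on the log2 scale or 9.25 times the control (q = 0.0117), on chromosome 1 from 92182080 to 92182529 with a fold enrichment of 16.3. KLHL36 had 1.30 with the smallest q-value of the group (q = 8.13e-09), on chromosome 16 from 84659772 to 84662569 with a fold enrichment of 38.7. The strongest member peaks were in this group too. KLHL9, a receptor with a part in mitosis, had a fold enrichment of 109, above 98.7% of all listed peaks, and a log2FC of 0.75 (q = 0.00123) in a peak of 2243 nt on chromosome 9 from 21332959 to 21335201. BTBD3 had a fold enrichment of 88.0 and a log2FC of 0.92 (q = 5.62e-05) on chromosome 20 from 11922657 to 11923855. The median fold enrichment of the BTB peaks was 38.7, against 12.2 over all member peaks. BTBD genes are included by symbol, and not all are established ligase receptors.

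The deubiquitinases had 4 lower and 4 higher peaks in 7 genes, beside 72.1% lower among all listed peaks. USP2, which stabilises MDM2, fell by 3.22 on the log2 scale (q = 0.000692) to 10.7% of the control, in a peak on chromosome 11 from 119372853 to 119373360 with a fold enrichment of 31.5. An opposite-strand ID shares 504 of the 508 bases, so the fall cannot be assigned to USP2 alone. USP11 had -2.31 (q = 0.01) on chromosome X from 47232989 to 47233422, a peak that begins 20 bases before the annotated gene span and has a fold enrichment of 8.04. USP9X had a smaller fall of -0.67 (q = 0.0288) in the second least enriched member peak, with a fold enrichment of 3.18, on chromosome X from 41232415 to 41232714. The higher peaks outside OTUD5 had changes of similar size. USP10, a deubiquitinase of p53, had 0.79 and the smallest q-value of the group (q = 2.95e-05), on chromosome 16 from 84744705 to 84745602 with a fold enrichment of 62.2. USP47 had 0.79 and USP34 had 0.89.

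All 4 member genes with several peaks had peaks of both directions, beside 19.8% of the 121 IDs with several peaks in the whole table. In OTUD5, a deubiquitinase that restrains interferon production, 448 bases separated a higher peak at the start of the gene from a lower one. The higher peak, on chromosome X from 48957660 to 48958386, had a log2FC of 2.0 (q = 0.0417) and a fold enrichment of 18.7. The lower peak, from 48957002 to 48957211, had -1.93 (q = 0.0219) and 5.17. In RNF139, a ligase of the endoplasmic reticulum, the peaks were 209 bases apart on chromosome 8. The peak from 124485845 to 124486864 had 0.72 (q = 0.00661) at a fold enrichment of 63.4, and the one from 124487074 to 124487734 had -1.17 (q = 0.0148) at 26.7. In both genes the more enriched peak was the higher one and lay nearer to the 5′ end.

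RNF213, a giant ligase linked to moyamoya disease, had 3 peaks on chromosome 17 whose change went from a rise to a growing fall along the gene. From the 5′ end, the peak from 80328466 to 80332624 had 0.84 (q = 0.000832), the one from 80339288 to 80339678 had -0.81 (q = 0.00151), and the one from 80353013 to 80354117 had -2.49 (q = 5.62e-05). Their fold enrichments were 6.43, 4.74 and 4.27. The third peak shares 155 of its 301 bases with peaks of the opposite-strand gene RNF213-AS1, so its fall cannot be assigned to RNF213 alone. On chromosome 8, the change along KBTBD11 ran the other way. Its first peak, from 2000287 to 2001275, had -0.71 (q = 0.049) at a fold enrichment of 43.7, the next, from 2004181 to 2004899, had 1.33 (q = 1.29e-07) at 13.3, and the last, from 2005858 to 2006187, had 1.49 (q = 6.76e-06) at 6.64. Unlike in the other 3 genes, the most enriched peak of KBTBD11 was the lower one.

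**Figure D2:**
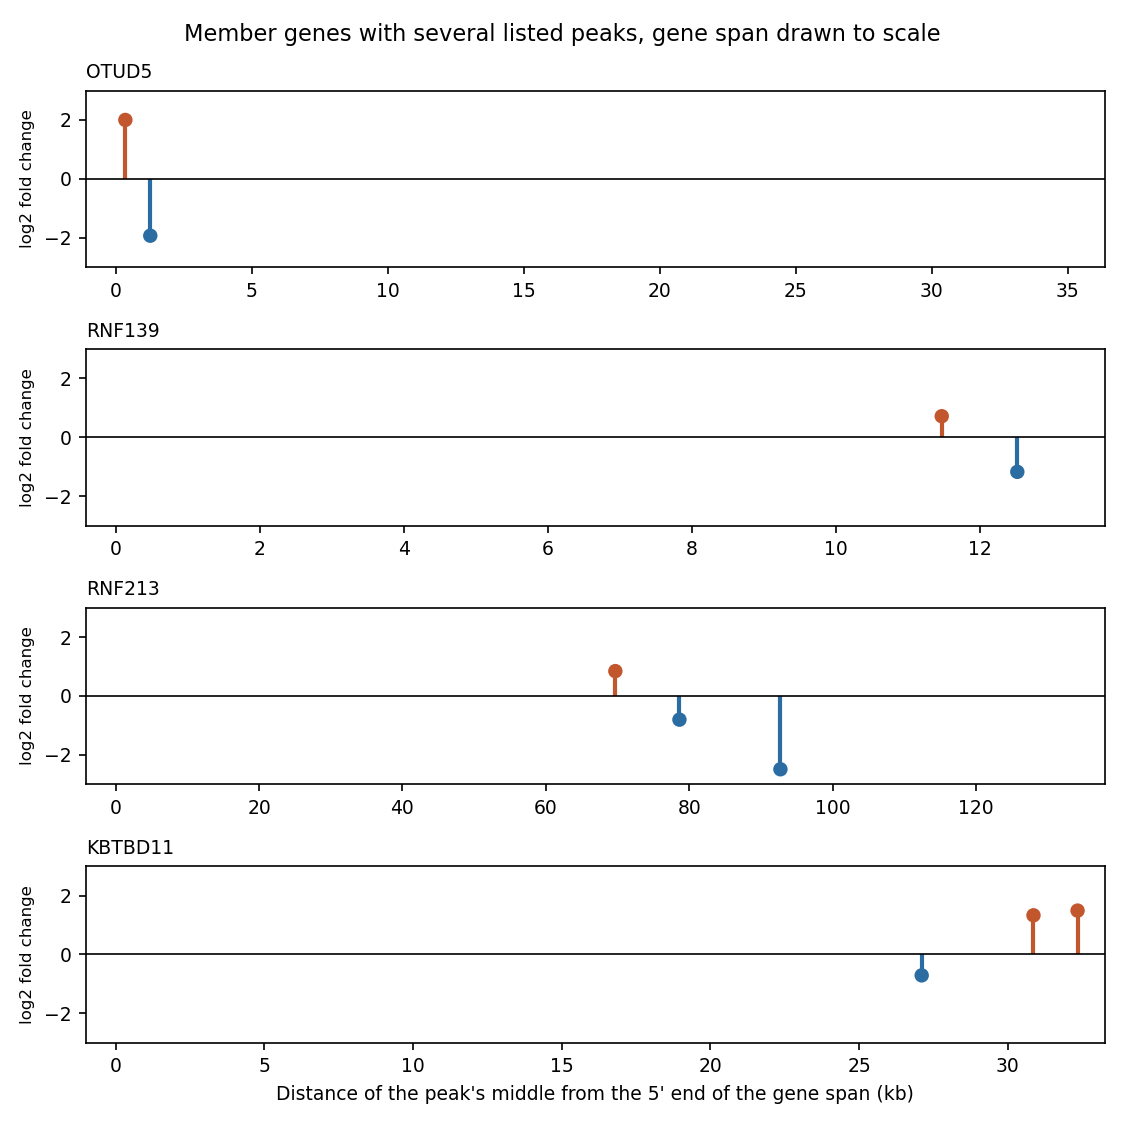
Points give the log2FC in m6A of each peak of the 4 member genes with several peaks against the distance of the peak's middle from the 5′ end of the gene span in kb. Each gene has peaks of both signs, and in OTUD5 and RNF139 these lie 448 and 209 bases apart.

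The higher peak of OTUD5, of 2 blocks with 390 nt in all, overlaps 2 RefSeq promoter windows, since the gene has several annotated start sites. In one window GGACT occurs 2 times on the RNA strand, both inside a block of the higher peak, on the minus strand of GRCh38.p14 at chrX:48957830-48957857 and chrX:48957782-48957810. The motifs lie at -239 and -191 from the start site of that window, so RNA begun at that site would not hold them. The start site of the other window, at 48958381, lies upstream of both motifs, so RNA begun there could hold them. Both motifs are shown in capitals, beside the stretch given for UBE2D3, because the peaks changed in opposite directions.
OTUD5 first: ataaacttgctGGACTtggagagaaggc
OTUD5 second: tgccttcatcttGGACTttacatccgggt
The peak of USP11 shares 70 bases with a promoter window that holds no GGACT on the RNA strand. The motif was thus found under a higher and a lower member peak, and the sequence under the other peaks was not analysed here.

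Peak strength and direction went together among the members as they did in the whole table. The median fold enrichment was 6.07 over the lower and 14.7 over the higher member peaks, and 6.22 and 20.2 over all lower and all higher peaks. Below the median enrichment of the table, 8.43, 12 of 18 member peaks were lower (66.7%, against 88.0% of all such peaks). At or above it, 9 of 24 were lower (37.5%, against 56.3%). When all peaks were ranked by enrichment and cut into 5 groups of similar size, the differences were uneven. Among peaks with fold enrichments from 6.27 to 11.8, 2 of 9 member peaks were lower, against 77.0% of all such peaks, whereas in the group just below it 9 of 10 were lower, against 89.0%. Over all members the median enrichment was 12.2, against 8.43 in the table. The part of enrichment in the members' share of lower peaks was not tested beyond these counts.

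**Figure D3:**
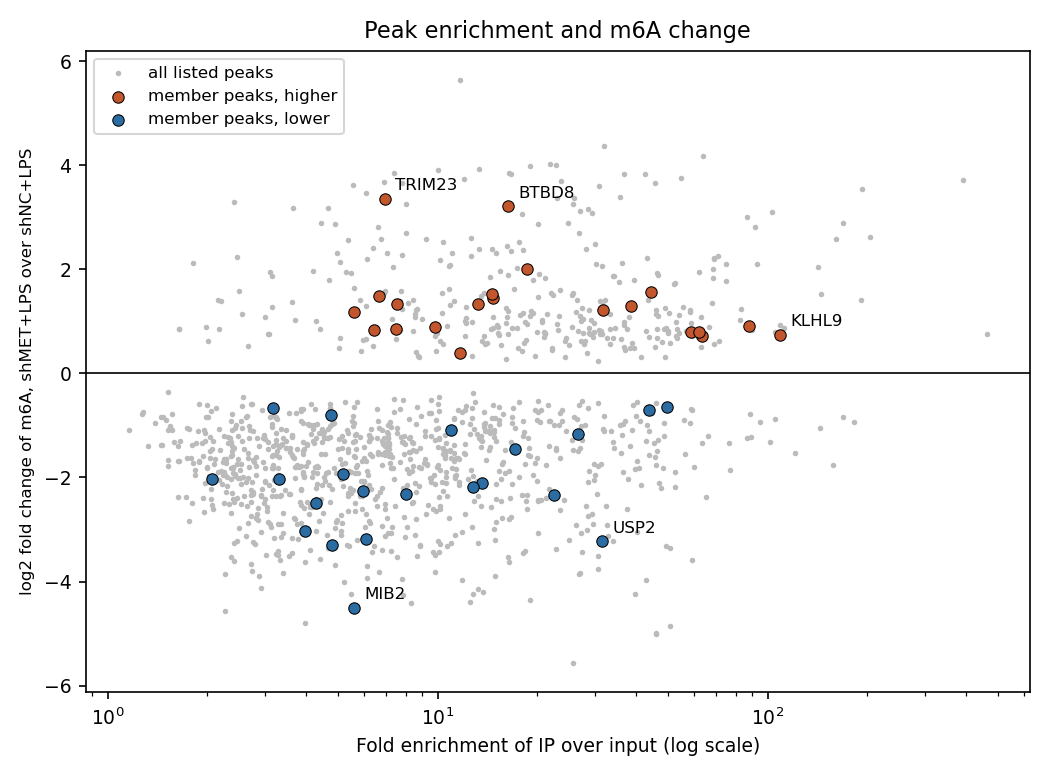
Each point is a listed peak, with the fold enrichment of IP over input on a log axis and the log2FC in m6A, shMET+LPS over shNC+LPS, with all peaks in grey and member peaks in colour. The member peaks run from a fold enrichment of 2.07 to 109, and MIB2 has the lowest and TRIM23 the highest fold change among them.

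**Figure D4:**
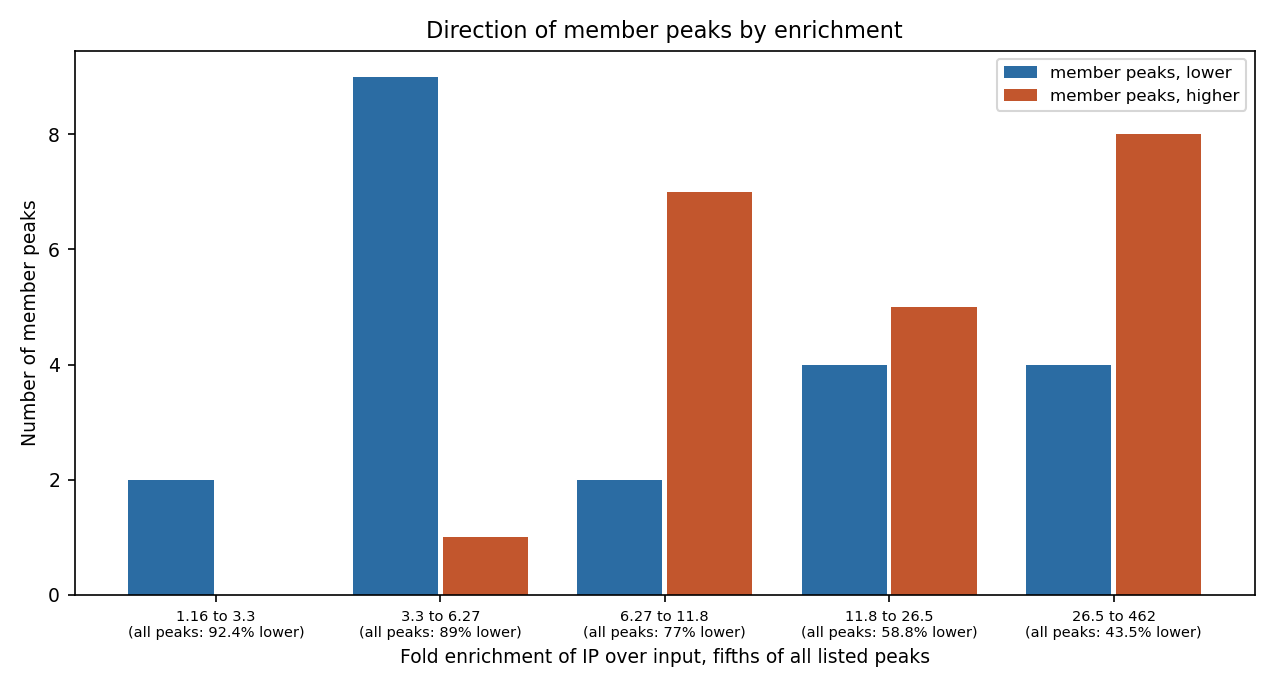
Bars count the lower and higher member peaks in 5 groups of all listed peaks ranked by fold enrichment, with the share of all peaks that were lower printed under each group. Of the 12 member peaks in the most enriched group, 4 were lower.

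The lower member peaks were also narrower, with a median width of 301 nt against 539 nt for the higher ones, beside 360 nt and 569.5 nt in the whole table. Of the member peaks, 27 (64.3%) ended within 10 kb of the 3′ end of the gene span, beside 65.3% of all peaks in named protein-coding genes. Within 100 bases of the 5′ end or before it, 5 member peaks began, among them those of USP11, UBE2H, TRIM58 and the higher one of OTUD5, and 4 of the 5 were lower. The TRIM58 peak has 6 blocks and ends 3694 bases from the 3′ end, so it is counted at both ends. Of all 77 peaks at the 5′ end, 93.5% were lower. OTUD5 was thus an exception among peaks at this place.

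Member peaks in 5 genes share bases with a peak listed under another ID. For USP2 504 of 508 bases are shared with an ID on the opposite strand with a log2FC of -3.51. For TRIM25 108 of 121 bases are shared with an opposite-strand ID with -1.96. The third peak of RNF213 shares 155 bases with each of 2 peaks in the antisense gene RNF213-AS1, with -3.44 and -3.31. Whether reads were counted by strand is not given in the sources used here, so these members and their neighbours cannot be told apart. USP27X fits the rule by symbol but not by ID number, and its peak on chromosome X from 49881227 to 49881762, with a log2FC of 3.76 (q = 0.0234), was not counted.

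Other genes of the ubiquitin system were looked up from a list of 247 genes, and 26 had a listed peak each (10.5%, beside 4.84% of all protein-coding genes), with 15 lower and 11 higher. The lower peaks were 57.7%, beside 72.1% of all listed peaks, and the difference was not tested. ADRM1, a ubiquitin receptor of the proteasome, had -3.90, and the lid subunits PSMD12 and PSMD11 had 1.42 and 1.54. ANAPC2, CDC27 and CDC16, subunits of the anaphase-promoting complex, had -2.43, -1.26 and -1.04. TRAF3 and BIRC3, ligases of inflammatory signalling, were higher, with 2.31 and 0.99, and MDM2, the ligase of p53, had 0.58. CAND1, which exchanges cullin receptors, had 0.93, beside 1.34 in the member CUL4B.

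The cell line's identity could be checked only through listed peaks. Of 14 RPE genes, OTX2 and KRT8 had a peak, and none of 5 blood and immune, 3 endothelial and 3 photoreceptor genes had one. With 4.84% of all protein-coding genes listed, lists this short show no contrast, and a gene without a listed peak may be expressed or not.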

How the data were processed

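MeRIP-seq libraries of ARPE-19 cells (3 m6A IP and 1 input per group) were compared. The submitters' notes name hg38, CASAVA, fastp 0.19.11 and MACS2 2.1.0, and the 18 columns of the deposited table have the names used by exomePeak. The authors deposited, for each peak, a p-value of IP over input, a fold enrichment (a ratio) and, for the comparison of the groups, a log2 fold change. The authors also deposited the log10 p-value and q-value of that comparison, recorded here as a score. The fold changes and q-values printed are those of the authors' own comparison and were not recomputed, because the table holds no counts. Depth per sample is unknown. A further pair of columns, with log10 values of the IP over input test, holds 69 and 166 error cells and was not used.

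An ID took the name of the same-strand RefSeq gene whose span holds all its peaks, with a protein-coding gene preferred where several did and no name where the choice was not unique, otherwise that of the only protein-coding gene touched, which named 1059 of 1103 IDs. The strand of 8 of the 36 member genes was not in the tables used, and 2 were named by touching. The naming step was tested on simulated data. Full values were given for genes named singly in the rule, the smallest q-value of each role, the 8 largest changes in each direction at a fold enrichment of at least 2, genes with several peaks, and the 3 most and 3 least enriched peaks, which made 26 genes, 1 of which is counted in the totals and not reported by itself here. The others were given with their log2 fold change. USP27X, the genes of the other-gene list that are printed, the groups by enrichment, the distance limits and the promoter windows were chosen after values were seen. The members and lists were chosen with earlier results of these data known. No test was run. Motifs were searched in promoter windows only. Of 4 forms of the m6A consensus searched, GGACT is described, and the GGACA at UBE2D3 is mentioned. Transcript regions and the sequence under other peaks need an annotation and a genome and were not analysed here. Python 3.11.15, pandas 2.3.3, numpy 2.4.6 and matplotlib 3.10.9 were used.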

Additional observations from a re-analysis of the deposited data

How the results depend on the processing

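The counts of member peaks and genes, the share of lower peaks, the median fold enrichment and the median log2 fold changes were recomputed under up to 9 other settings each, the median log2 fold changes under 2. A fold enrichment of at least 2 removed no member peak, so its 6 values could not move. Of the other 28 values, 27 stayed within 1.5 times the count or inside the interval of the share or median. The exception was the number of member peaks at a q-value at or under 0.01, which was 27 in place of 42, because the limit leaves fewer peaks. The interval was 6.92 to 17.2 for the median enrichment. It was -2.49 to -1.17 for the median of the lower peaks and 0.84 to 1.49 for that of the higher ones. The settings reuse mostly the same peaks and these limits are wide, so the values that stayed say little about robustness. The share of lower peaks was between 44.4% at that limit and 58.6% at a change of at least 1 on the log2 scale in either direction, so which direction is the more frequent depends on the setting. Leaving out the ID counted as UBE2V1, which may be that of the read-through gene, gave a share of 51.2%. Leaving out the peaks shared with another ID gave 45.9%. Both settings were chosen after seeing the data. The interval of the share is wide, because 42 peaks are few. No paired analysis was possible because the deposited table gives values over combined libraries only. Leaving out each replicate was not run for that reason, and the motif and transcript-region alternatives were not run because they need a genome and an annotation.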

Other observations

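Of 21 genes of the m6A machinery, 1 had a listed peak (4.76%, close to the 4.84% of all protein-coding genes). WTAP, a regulatory subunit of the m6A writer, had a log2 fold change (log2FC) of 2.20 (q = 0.00132), or 4.59 times the control, at a fold enrichment of 68.6. The peak lies on chromosome 6 from 159726245 to 159726965 and begins before the annotated start of the gene. METTL3 itself had no listed peak. Among RPE genes, OTX2 had 0.99 at a fold enrichment of 36.8 and KRT8 had -1.65 at 2.29.

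In the other ubiquitin genes, the most enriched peak was that of the SUMO ligase PIAS4, with a fold enrichment of 77.2 and a log2FC of -1.86 (q = 0.0155). BRCC3, a deubiquitinase, followed with 68.1 and 1.35 (q = 0.038). ISG15, a ubiquitin-like modifier induced by interferon, had -1.34 (q = 6.61e-07) at a fold enrichment of 1.85.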
